A study of Mus musculus with 3 samples.

Results

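The HoxC cluster is the group of 9 homeobox genes Hoxc4, Hoxc5, Hoxc6, Hoxc8, Hoxc9, Hoxc10, Hoxc11, Hoxc12 and Hoxc13, which all lie on the plus strand of mouse chromosome 15 (mm9) from the Hoxc13 start at 102751534 to the Hoxc4 end at 102867274. The 9 genes were taken by name out of 22367 protein-coding genes of the annotation. The peaks described are those that touch the genes, the intervals of 1 kb on each side of their annotated starts, the DNA between them or the 100 kb beyond each end of the cluster. These were 22 of 20479 peaks of RNA polymerase II (RNAP2) and 3 of 10634 peaks of Med12. The cluster measures 115.741 kb and the window with both flanks 315.741 kb.

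Hox genes encode transcription factors that give cells their position along the body axis, and their order on the chromosome follows the order of their expression domains, with group 13 at the most posterior end. The HoxA and HoxD clusters are the main Hox genes of limb patterning, whereas HoxC genes are best known for the thoracic skeleton, for motor neurons at limb levels, for the hindlimb, and, in the case of Hoxc13, for hair and nails. RNAP2 transcribes protein-coding genes and is also found at many active enhancers. Med12 is a subunit of the kinase module of Mediator, the complex that links transcription factors at enhancers to the polymerase at promoters.

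The study mapped both proteins by chromatin immunoprecipitation and sequencing (ChIP-seq) to find regulatory sites in the part of the limb that forms the hand. All 3 samples were chromatin of distal forelimb buds dissected from mouse embryos at E12.5, with no mutation or treatment named for any of them. Cells of the dissected tissue were fixed in suspension, no sorting of cell types is described, and the number of embryos behind a library is not given in the sources used here. The samples were an RNAP2 precipitate, a Med12 precipitate and an input without precipitation, and a peak list was used for each of the precipitates. The series' design text gives E11.5 instead, and the stage in the sample labels and the methods is used here. With 1 library per antibody there was no replicate error, no test was possible, and every value below is a description of these libraries. Each listed peak carries a score, 10 times the negative log10 of the peak caller's p-value. A score grows with read depth and with peak width as well as with enrichment, so scores were compared within a list only. The lists hold no read counts, and the depth behind a peak is unknown from them. In bulk chromatin, binding in fewer cells and weaker binding per cell cannot be told apart.

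The labelled tissue was checked against marker genes, counting those with a peak within 1 kb of a start. These gene lists were chosen with earlier results of these data known, so the check is not an independent one. Such an RNAP2 peak was found at 42.2% of all protein-coding genes. RNAP2 peaks lay at all 8 genes of distal limb mesenchyme, of which Hoxd12 and Hoxd13 share a single peak, with scores from 1095.21 to 3100, and at Tbx5, the forelimb T-box gene, with a score of 1987.07. Of the genes that mark the hindlimb, Tbx4 had no RNAP2 peak, Pitx1 had one with a score of 99.35 and Isl1 one with a score of 1110.05. RNAP2 peaks were also found at 1 of 4 muscle genes (Pax3, score 283.38), 1 of 4 endothelial genes (Kdr, 148.26), 2 of 3 neural genes (Pax6, 254.21, and Neurog2, 70.24), and 0 of 4 genes each for limb ectoderm and blood. The part of other cell types in the HoxC peaks was not tested.

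RNAP2 peaks were found at the starts of 6 HoxC genes, and Med12 peaks at none. The 6 genes were Hoxc4, Hoxc5, Hoxc6, Hoxc10, Hoxc12 and Hoxc13, and the 3 without an RNAP2 peak within 1 kb of any start were Hoxc8, Hoxc9 and Hoxc11. Among all protein-coding genes, 42.2% had an RNAP2 peak and 9.37% a Med12 peak by the same rule. The HoxC peaks had low scores, with a lowest value of 40.59, a median of 84.365 and a highest value of 128.91, against a median of 383.3 for the top score of all 9439 genes with such a peak. Only Hoxc5 and Hoxc6 kept a peak at a score of at least 100, a limit that 35.6% of all protein-coding genes passed. Over starts of all protein-coding genes, 20.5% of those with an RNAP2 peak had a Med12 peak as well.

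**Figure D1:**
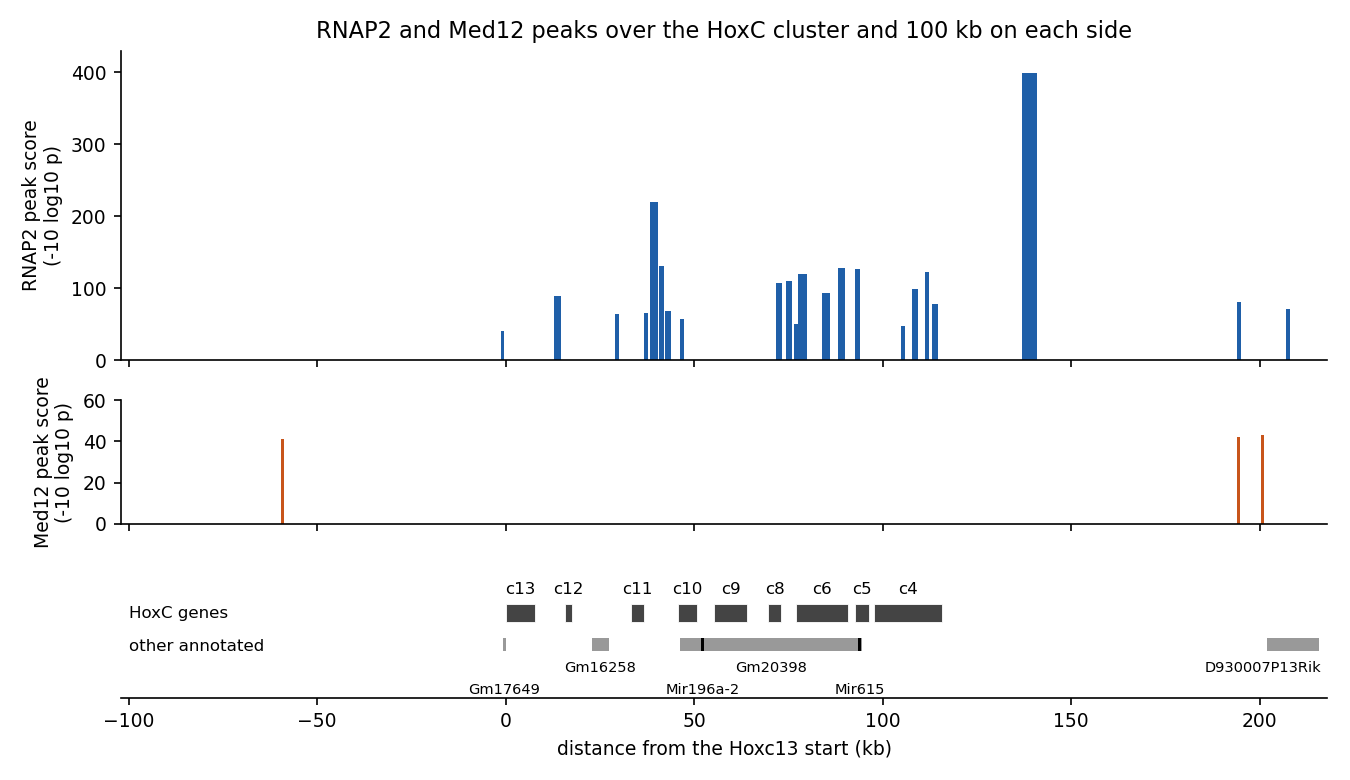
Peaks of RNAP2 (top) and Med12 (middle) over the HoxC cluster and 100 kb on each side, with each peak drawn at its true width and with its score (10 times the negative log10 of the p-value) as height, against the distance from the Hoxc13 start in kb; genes are below. The RNAP2 peaks of the cluster reach 220.41, a single peak beyond Hoxc4 reaches 399.42, and the 3 Med12 peaks all lie outside the cluster with scores under 50.

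The genes at the anterior end, Hoxc4, Hoxc5 and Hoxc6, held the peaks that covered a start. Hoxc6, a gene of the thoracic region, has 3 annotated starts, and each lay under its own RNAP2 peak. The start at 102828688 was covered by a peak at 102828069 to 102829099, scored 51.03. The start at 102830960 lay under a peak at 102829208 to 102831441, scored 119.99. The start at 102839910 lay under a peak at 102839697 to 102841531, scored 128.91, the highest value at any HoxC start. A further peak with a score of 93.13 lay in an intron, from 102835494 to 102837569, so that RNAP2 peaks covered 48.1% of the Hoxc6 gene, the largest share among the 9 genes. All of these peaks also overlapped the annotated gene Gm20398, described below, so the covered share is not that of Hoxc6 alone.

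Hoxc5, which acts in the cervical and upper thoracic region, has its start at 102844246. An RNAP2 peak from 102844141 to 102845649 covered it with a score of 126.95 and a rank of 10069 in the list of 20479. The same peak covered Mir615, a microRNA gene at 102845341 to 102845432, so the signal at the start of Hoxc5 and that at the microRNA cannot be told apart. Hoxc4, the most anterior gene of the cluster, has starts at 102849367 and 102864826. The upstream start had no peak within 1 kb, the nearest being 3718 bp away, whereas the downstream start was covered by a peak at 102864671 to 102866255, scored 78.72. The intron before it held 3 more peaks, from 102856497 to 102857514 (score 47.32), from 102859434 to 102860847 (99.18) and from 102862769 to 102863743 (122.44). The highest RNAP2 score in the Hoxc4 gene was therefore in an intron and not over a start. That peak lay just outside the 1 kb limit of the downstream start, 927 bp from the peak that covered it.

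The central 200 bp of that intron peak, chr15:102863157-102863356 on the plus strand of mm9, are shown because they were the one peak centre of the window with a match to the composite HOX-PBX letters TGATTNAT. Capitals mark that match and a match to the GC box letters GGGCGG.
Hoxc4 intron peak: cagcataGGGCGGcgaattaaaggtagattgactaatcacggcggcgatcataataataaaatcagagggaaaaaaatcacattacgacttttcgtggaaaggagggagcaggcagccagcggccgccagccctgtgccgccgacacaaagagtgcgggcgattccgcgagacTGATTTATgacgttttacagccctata
These 200 bp hold 16 CpG dinucleotides and are 50.5% G or C. A match is a description of the letters and not of a bound factor.

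In the middle of the cluster, Hoxc8 and Hoxc9 had no RNAP2 peak at a start. Hoxc8, a gene of the thoracic skeleton and of brachial motor neurons, starts at 102821053, and the nearest peak began 2147 bp downstream, from 102823200 to 102824907, over the last exon and the annotated end of the gene, with a score of 106.89. It was the only RNAP2 peak of the cluster over the end of a member gene, and it covered 41.1% of the gene with no peak at its start. Hoxc9, another thoracic gene, starts at 102806870 and 102807463, and its nearest RNAP2 peaks lay 7984 bp and 8577 bp away. No RNAP2 peak overlapped the Hoxc9 gene. The interval of 24313 bp between the peak in Hoxc10 and the peak at the end of Hoxc8 was the longest without an RNAP2 peak inside the cluster, and it contains Hoxc9, the Hoxc8 start and the microRNA gene Mir196a-2.

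Of the posterior genes, Hoxc10, Hoxc12 and Hoxc13 had a low RNAP2 peak near but not over the start, and Hoxc11 had none. Hoxc10, a gene of the lumbar region and the hindlimb, starts at 102797227, and its peak began 574 bp inside the gene, from 102797801 to 102798886, with a score of 57.57. That peak also covered the start of Gm20398, an annotated gene that runs from Hoxc10 into Hoxc5, at 102797874. Hoxc11, which acts with Hoxc10 in the hindlimb, starts at 102784858, and its nearest peak was 3340 bp away with a score of 65.04. Hoxc12 starts at 102767188, and a peak at 102764452 to 102766190, scored 90.01, ended 998 bp before it, just inside the limit of 1 kb. Hoxc13 starts at 102751534, and a peak at 102750301 to 102751219, scored 40.59, ended 315 bp before it. This last peak ranked 20245 of 20479 and overlapped the short gene Gm17649, so its assignment to Hoxc13 is uncertain.

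The nearest Med12 peak to any member's start was 58900 bp away, beyond Hoxc13, and the distance reached 124440 bp for Hoxc8. No Med12 peak lay anywhere between the Hoxc13 start and the Hoxc4 end. The deposited Med12 list shows peaks above its own lowest score of 40, so binding below that limit would not be seen.

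Of 18 RNAP2 peaks inside the cluster, 7 lay within 1 kb of a member's start, 11 did not, and 5 covered a start. In the whole list, 10692 of 20479 RNAP2 peaks were not within 1 kb of an annotated start, so the cluster was not set apart by this count. The share of the whole list that covered a start is not given here. By gene, 11 of the 18 overlapped a HoxC gene and 7 lay between the HoxC genes. The shares of the cluster DNA and of the whole list that lie in genes are not given here. These counts therefore do not show a preference for genes or for the DNA between them. The scores of the 18 peaks ran from 47.32 to 220.41 with a median of 96.155. A score of at least 100 was found for 8 of the 18, or 44.4%, against 56.7% of the whole RNAP2 list. In the window the share was 9 of 22. For 14 of the 18 the score was below the median of the whole list, 123.39, although their median width, 1547 bp, was above the list's 1328 bp. Together they covered 23.2% of the cluster.

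The highest RNAP2 score of the cluster, 220.41, was not at a gene but in the DNA between Hoxc11 and Hoxc10. Here 4 peaks followed each other closely and covered 48.7% of the 12.369 kb from the Hoxc11 start to the Hoxc10 start. They ran from 102788231 to 102789417 (score 66.22), from 102789896 to 102791876 (220.41), from 102792286 to 102793505 (131.15) and from 102793729 to 102795363 (68.39). Neither flanking gene had a peak over its start. The centre of the highest peak, chr15:102790787-102790986, is printed on the plus strand with a match to the MEIS letters TGACAG in capitals.
Peak between Hoxc11 and Hoxc10: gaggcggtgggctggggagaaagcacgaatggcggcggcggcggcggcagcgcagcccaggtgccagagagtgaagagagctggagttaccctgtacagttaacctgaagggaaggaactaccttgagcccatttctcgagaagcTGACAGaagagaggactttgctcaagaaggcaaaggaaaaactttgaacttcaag
This stretch is 55.5% G or C with 9 CpG dinucleotides, whereas the whole peak of 1981 bp had a CpG observed over expected ratio of 0.241.

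The peaks were denser on the anterior side. From the Hoxc8 start to the Hoxc4 end, 46.222 kb held 11 RNAP2 peaks with a median score of 106.89, of which 6 reached 100, and they covered 36.9% of the DNA. From the Hoxc13 start to the Hoxc8 start, 69.519 kb held 7 peaks with a median score of 68.39, of which 2 reached 100, and they covered 14.1%. Both peaks with a score of at least 100 on the posterior side were in the interval between Hoxc11 and Hoxc10. The stretch with the largest covered share was the one from the Hoxc8 start to the first Hoxc6 start, with 52.6%, and the one from the Hoxc9 start to the Hoxc8 start had 0%. A peak at 102825921 to 102827611, scored 110.41, lay between the end of Hoxc8 and the first start of Hoxc6, in an intron of Gm20398.

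The noncoding genes of the cluster were described in the same way. Gm16258, listed in RefSeq as Hotair, is a long noncoding RNA gene on the minus strand between Hoxc12 and Hoxc11, at 102774493 to 102778851. It had no RNAP2 peak within 1 kb of its start. The nearest, from 102780539 to 102781518 (score 65.04), lay 1688 bp upstream of that start, toward Hoxc11. Mir196a-2 likewise had no RNAP2 peak within 1 kb of its start, whereas Mir615 lay under the Hoxc5 peak. Gm20398, on the plus strand from 102797874 to 102846107, overlapped 8 RNAP2 peaks, which covered 27.2% of it. Among them were the peaks at Hoxc10, Hoxc8, Hoxc6 and Hoxc5. Signal of those genes and signal of Gm20398 cannot be told apart there. The microRNAs are shown because they are products of the same cluster and only one of their genes lay under an RNAP2 peak. The mature sequences are those of RefSeq (GRCm38.p6), and the capitals mark the seed, bases 2 to 8.
miR-615-3p: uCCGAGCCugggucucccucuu
miR-615-5p: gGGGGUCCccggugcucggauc
miR-196a-5p: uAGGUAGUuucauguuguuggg
miR-196a-2-3p: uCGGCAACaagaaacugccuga
The 4 seeds differ from each other. miR-196a is known for targeting Hox transcripts, Hoxb8 among them.

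The highest score of the window was beyond the cluster. A peak of 3900 bp from 102888627 to 102892526, centred 23302 bp past the Hoxc4 end in intergenic DNA, had a score of 399.42 and ranked 4774 in the RNAP2 list. It did not overlap a Med12 peak. No annotated gene was at this position, and which gene it might serve was not tested. Its central 200 bp, chr15:102890477-102890676, are given on the plus strand because no other site of the window scored as high.
Peak beyond Hoxc4: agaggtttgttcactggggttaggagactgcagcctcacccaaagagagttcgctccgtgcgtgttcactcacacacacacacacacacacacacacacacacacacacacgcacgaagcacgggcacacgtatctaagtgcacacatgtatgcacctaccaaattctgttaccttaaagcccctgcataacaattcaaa
They contain an uninterrupted run of at least 40 bp of alternating C and A and none of the 3 motifs searched. Alternating dinucleotides are repeated in many places of the genome, and their effect on the mapping of reads here was not tested.

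The 2 other RNAP2 peaks on that side were low. The one from 102945492 to 102946639, with a score of 80.84, was the only RNAP2 peak of the window that overlapped a Med12 peak. The Med12 peak ran from 102945493 to 102946387, scored 41.94 and ranked 9670 of 10634. In the whole list, 21.7% of RNAP2 peaks overlapped a Med12 peak. The other RNAP2 peak, at 102958529 to 102959481 and scored 70.81, lay in an intron of D930007P13Rik. The centre of the shared site, chr15:102945966-102946165, is shown on the plus strand because it is the one place near the cluster where both proteins were listed.
RNAP2 and Med12 site: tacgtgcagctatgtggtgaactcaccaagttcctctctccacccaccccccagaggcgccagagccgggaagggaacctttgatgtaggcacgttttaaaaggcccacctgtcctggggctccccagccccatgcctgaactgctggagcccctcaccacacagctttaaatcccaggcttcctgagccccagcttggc
This stretch is 60% G or C but has only 4 CpG dinucleotides, and none of the 3 motifs was found in it.

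All 3 Med12 peaks of the window had scores below 50, the value that corresponds to the p-value threshold of the methods, as had 3816 of 10634 in the whole Med12 list. Beside the shared site they lay from 102691952 to 102692634, beyond Hoxc13, with a score of 41.02, and from 102952042 to 102952666, beyond Hoxc4, with a score of 43.13. Just outside the window, the nearest RNAP2 peaks had scores of 161.21, at 172897 bp beyond Hoxc13, and 634.23, at 125837 bp beyond Hoxc4. The nearest Med12 peaks outside had scores of 261.39, at 249313 bp, and 121.48, at 177736 bp. Just inside, the outermost RNAP2 peaks had scores of 40.59 and 70.81, and the outermost Med12 peaks 41.02 and 43.13. The neighbouring genes Calcoco1 and Smug1 had no peak of either list at a start. Cbx5, which encodes a heterochromatin protein, and Hnrnpa1, which encodes an RNA-binding protein, have neighbouring starts under a single RNAP2 peak with a score of 3100, where a Med12 peak had a score of 92.83. The Med12 peak with a score of 121.48 lay at another start of Cbx5.

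The HoxA and HoxD clusters, both central to the limb, had higher and wider RNAP2 peaks than HoxC at a like number of peaks per length, and HoxB had fewer peaks. The HoxA cluster held 18 RNAP2 peaks and the HoxD cluster 13, which is 17.1 and 13.4 per 100 kb against 15.6 for HoxC. Those peaks covered 64.5% of HoxA and 53.8% of HoxD, with median widths of 2613.5 and 2694 bp and median scores of 298.97 and 316.05. The HoxB cluster held 8 peaks, or 4.60 per 100 kb, which covered 6.99%. Their median score was 113.89 and their median width 1259 bp. The HoxB length of 173.941 kb includes a long interval without a Hox gene, from the Hoxb13 end at 96058761 to the Hoxb9 start at 96132771. The part of that interval in the values per length was not tested. HoxC was thus closer to HoxB in score, and to HoxA and HoxD in the number of peaks per length. By covered share, HoxC at 23.2% was closer to HoxB. A wide peak counts once, and the widest measured 21448 bp in HoxA, 16825 bp in HoxD and 2234 bp in HoxC. Med12 peaks numbered 9 in HoxA, 2 in HoxD, 0 in HoxB and 0 in HoxC. None of these differences could be tested with 1 library per antibody.

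**Figure D2:**
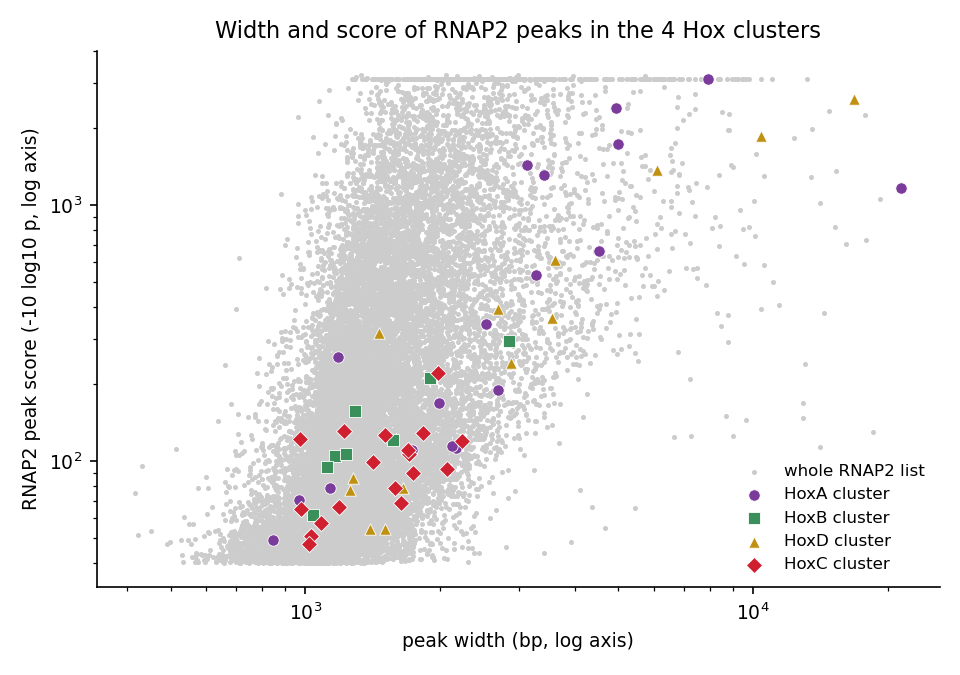
Width in bp against score (10 times the negative log10 of the p-value) for each RNAP2 peak, both on log axes, with the whole list in grey and the peaks of the 4 Hox clusters in colour. The 18 HoxC peaks lie between 975 and 2234 bp and between 47.32 and 220.41, while peaks of HoxA and HoxD extend to scores of 3100 and 2606.21.

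Gene by gene, RNAP2 peaks were at the starts of 11 of 11 HoxA genes, 8 of 9 HoxD genes, 4 of 10 HoxB genes and 6 of 9 HoxC genes, with median scores of 1168.78, 1611.87, 113.89 and 84.365. Of all protein-coding genes, 42.2% had such a peak, which is near the share in HoxB. With so few genes per cluster, the HoxC count is not set apart from that share. The gap between HoxC genes and their HoxA and HoxD paralogs was wide in groups 10 to 13. Hoxc13 had 40.59, where Hoxa13 had 1725.83 and Hoxd13 1854.76, both genes of the digits, and Hoxb13 had no peak. Hoxc12 had 90.01 and Hoxd12 1854.76. Hoxc11 had no peak, while Hoxa11 had 3100 and Hoxd11 2606.21. Hoxc10 had 57.57, against 1168.78 for Hoxa10 and 2606.21 for Hoxd10. Some of these paralogs share a broad peak, Hoxa9 with Hoxa10, Hoxd10 with Hoxd11 and Hoxd12 with Hoxd13, whereas each HoxC gene with a peak had its own. Score grows with width, and the part of width in these differences was not tested. Many peaks of the list share the score of 3100, so values at that level cannot be ranked.

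In groups 4 and 5 the scores of the paralogs with a peak were closer. Hoxc4 had 78.72, beside 78.7 for Hoxa4 and 78.2 for Hoxd4, and Hoxb4 had no peak. Hoxc5 had 126.95 and Hoxa5 114.82, and Hoxb5 had none. In groups 6, 8 and 9 they were not. Hoxc6 had 128.91 and Hoxb6 104.67, with Hoxa6 far above both at 1436.74. The peak at Hoxa6 also covered a start of Hoxa3, so its score is not that of Hoxa6 alone. In group 8, Hoxc8 had no peak, Hoxb8 had 121.05 and Hoxd8 had 362.97. In group 9, neither Hoxc9 nor Hoxb9 had a peak, and Hoxa9 and Hoxd9 had scores of 1168.78 and 1368.98.

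**Figure D3:**
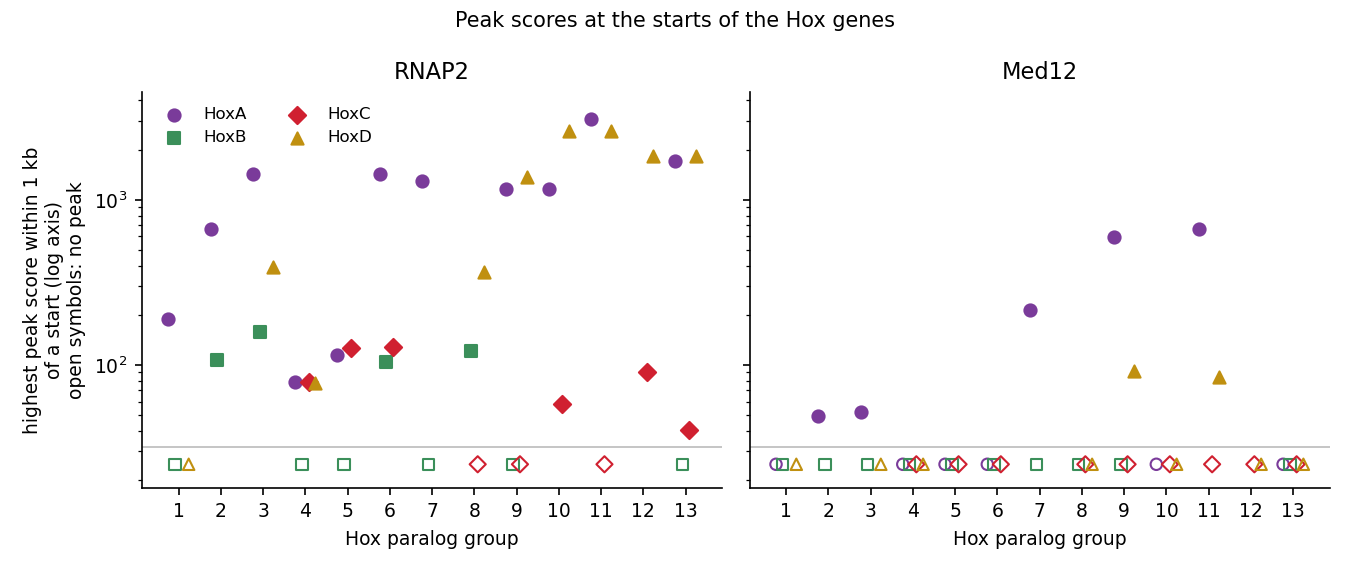
Highest score of a peak within 1 kb of a start, on a log axis, for every Hox gene by paralog group, for RNAP2 (left) and Med12 (right); open symbols below the line mark genes without a peak. HoxC symbols stay at or below 128.91 in the RNAP2 panel and are all open in the Med12 panel, while HoxA and HoxD genes of groups 9 to 13 lie at 1168.78 or above for RNAP2.

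The base composition of the peaks was computed from the mm9 genome. The CpG observed over expected ratio, which is high in the CpG islands at which many promoters lie, had a median of 0.439 in the 18 peaks of the cluster, from 0.119 to 0.688. For the 7 peaks within 1 kb of a start the median was 0.552, against 0.691 for all RNAP2 peaks near starts. For the other 11 it was 0.356, from 0.119 to 0.461, against 0.219 for all RNAP2 peaks away from starts. The HoxC peaks were therefore less divided by this measure than the list as a whole. A ratio above 0.6 was found in 2 of the 18 peaks, those at Hoxc5 (0.688) and before Hoxc12 (0.637), and in 35.5% of the whole list. The other clusters had such a ratio in 2 of 18 (HoxA), 2 of 8 (HoxB) and 3 of 13 (HoxD) peaks. The medians of the HoxA, HoxB and HoxD peaks were 0.540, 0.566 and 0.556. The G and C content was close to the list's, with medians of 49.6% and 49.0%.

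**Figure D4:**
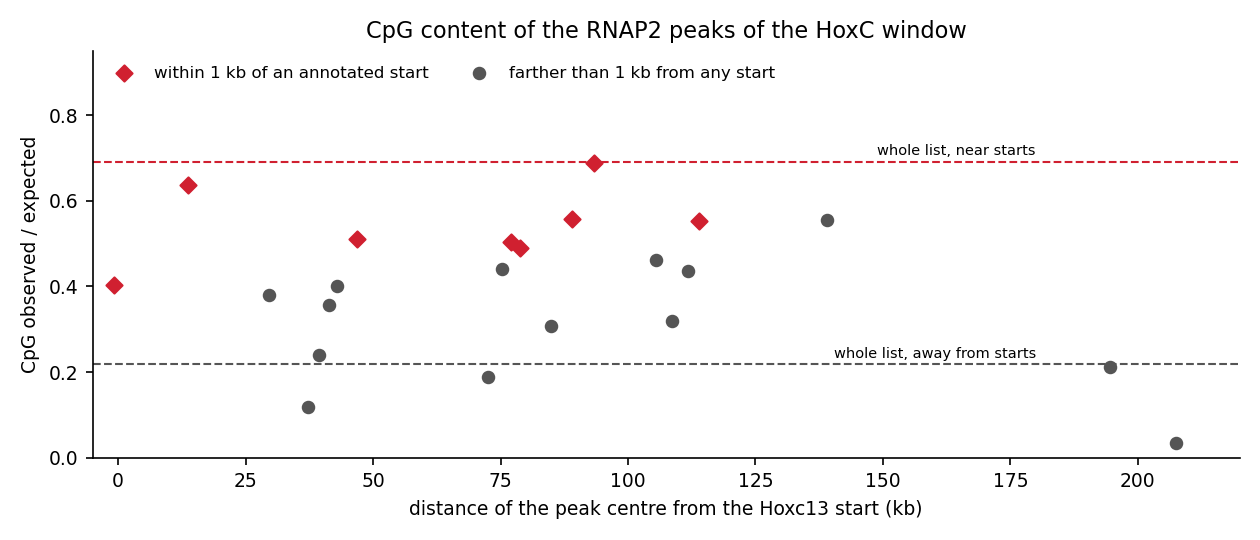
CpG observed over expected ratio of each RNAP2 peak of the HoxC window by distance of its centre from the Hoxc13 start in kb, with red diamonds for peaks within 1 kb of an annotated start and grey circles for the others; dashed lines are the medians of the whole list, 0.691 near starts and 0.219 away from them. Inside the cluster the peaks near starts have a median of 0.552 and the others 0.356, and the peak beyond Hoxc4 with the highest score stands at 0.555.

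Short motifs were searched for on both strands in the central 200 bp of the 22 RNAP2 peaks of the window. The HOX-PBX letters TGATTNAT were in 1 centre (4.55%), against 2.26% of all RNAP2 peak centres. The MEIS letters TGACAG were in 1 centre, against 10.7% of all. The GC box GGGCGG, a promoter element bound by Sp1, was in 2 centres (9.09%), against 24.3%. No match overlapped another. With 22 centres these counts are too small to rank the motifs.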

How the data were processed

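Chromatin of mouse distal forelimb at E12.5 was sequenced after precipitation of RNAP2 or Med12, with 1 library each, and 1 input library, which has no peak list here. Per the methods, the authors cut 1 base from the read start, aligned to mm9 with Bowtie (version not given in the sources used here), dropped redundant reads and ran MACS 1.4.1. Whether the input served as control is not stated. The deposited score is the peak p-value as its negative log10, multiplied by 10. Both lists reach down to a score of 40, below the 50 that equals the stated threshold. The depth per peak is unknown.

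Python 3.11.15 and numpy 2.4.6 were used to count overlaps of at least 1 bp with GENCODE vM1 genes, and sequences were read from the mm9 genome. The counting was tested on simulated data. Figures were drawn with matplotlib 3.10.9. RefSeq tables (GRCm38.p6) gave names and microRNA sequences alone. A start is that of any annotated transcript.

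Genes named are the 9 members, the other genes of the window and its neighbours, the other Hox genes, and lists of Meis and Pknox cofactors, limb type, Polycomb and Trithorax, and cell type genes. Every window peak and the nearest one outside each end are named. The members and lists were chosen with earlier results of these data known. Alternatives were scores of at least 100 or 50, a start interval of 5 kb, protein-coding transcripts alone, the gene's 5-prime end alone, windows of 50 or 200 kb, an overlap of 50% and a gap of 500 bp. A start interval of 500 bp and a peak over the start itself were added after seeing the data. Sox1 was not analysed here, and a result on other cofactors is not reported here.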

Additional observations from a re-analysis of the deposited data

How the results depend on the processing

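Of 32 recomputed values, 21 stayed within 1.5 times the reported one and 11 moved. At a score of at least 100, the HoxC genes with an RNAP2 peak at a start fell to 2, the RNAP2 peaks of the window to 9, its Med12 peaks to 0, their overlaps to 0, and the share of the cluster covered by RNAP2 peaks to 11.4%. At a score of at least 50, the Med12 peaks of the window and the overlaps were 0 each, and 5 HoxC genes had an RNAP2 peak at a start. By the gene's 5-prime end alone the genes with such a peak were also 5. With a start interval of 5 kb they were 8, with Hoxc8 and Hoxc11 among them. A window of 50 kb held 0 Med12 peaks and 0 overlaps, and a window of 200 kb held 2 overlaps. A start interval of 500 bp left 4 genes, and counting a peak only over the start itself left 3 (Hoxc4, Hoxc5 and Hoxc6). Both choices were made after seeing the data. Shares of all protein-coding genes are given here for the 1 kb interval alone, so counts by the other start rules cannot be set against them. Of the values that did not move, 9 were Med12 values of 0 in the cluster or at its starts, which these alternatives could not raise, since the nearest Med12 peak was 58900 bp from any start. The smaller counts follow from the stricter limits themselves. No paired analysis was possible because the result comes from no test and no antibody was sequenced more than once. The lists give no counts, so weak binding below their lowest score cannot be judged.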

Other observations

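Hox proteins bind DNA with cofactors of the TALE class, among them the Meis and Pknox proteins. Meis1 had an RNAP2 peak within 1 kb of a start with a score of 581.3, Pknox1 one with 441.49, Meis2 one with 105.95 and Pknox2 one with 61.23, whereas Meis3 had none. Meis1 and Meis2 also had a Med12 peak within 1 kb of a start, with scores of 42.2 and 49.83, and Pknox1 and Pknox2 had none. Both scores were below 50, and neither Med12 peak overlapped the RNAP2 peak quoted for its gene.

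Polycomb and Trithorax group genes, whose products maintain the silent and active states of Hox genes, all had an RNAP2 peak at a start (8 of 8, against 42.2% of all protein-coding genes), with scores from 59 at Bmi1 to 1892.01 at Ezh2 and a median of 822.31. Eed, Suz12, Rnf2 and Kmt2a also had a Med12 peak there, with scores of 127.84, 106.93, 49.02 and 280.44, the one at Rnf2 being below 50. A Med12 peak at a start was found at 9.37% of all protein-coding genes and at 20.5% of those with an RNAP2 peak. The peaks at Polycomb and Trithorax group genes say nothing of the binding of the encoded proteins at HoxC, which was not measured.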
